A study of Mus musculus with 48 samples.

Results

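The T cell receptor and naive T genes examined here were a set of 9 genes, Cd3e, Cd3d, Cd3g, Cd4, Lck, Zap70, Ccr7, Il7r and Lef1, taken by symbol from the expression table of each of 6 mouse tissues, with 1 entry kept for each Ensembl gene. The 6 tables together listed 15541 genes. All 9 of the set were listed in subcutaneous white adipose tissue (WAT), 5 in the duodenum, 5 in the jejunum, 4 in the ileum, 3 in the liver and 0 in the skeletal muscle. The genes were put together because of their values in WAT and in the intestinal segments, so the differences in those tissues are given as a description of the set and support nothing beyond it.

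The mice were male C57Bl6 with diet-induced obesity on a high fat diet. They had either Roux-en-Y gastric bypass (RYGB), in which the jejunum is connected to a small stomach pouch and food passes by the duodenum, or a sham operation, and both groups then received a liquid elemental diet. Libraries were taken at day 9, from fasted mice killed in the morning, with 4 RYGB and 4 sham libraries each for WAT, liver and gastrocnemius muscle, 3 and 4 each for the duodenum and the jejunum, and 5 and 5 for the ileum, which makes 48. The labels give a return to the high fat diet after the elemental diet for both groups, without saying whether mice killed at day 9 had returned to it, and they do not give weight matching. Both groups shared strain, surgery followed by the elemental diet, and fasting. The intestinal samples were villi scraped from the gut wall after a short time in ice-cold EDTA, so they hold mainly epithelium with the lymphocytes inside it and under it. Adipose tissue was frozen in liquid nitrogen and the other tissues were put in RNAlater. The labels do not state that replicates of a group were separate mice, and the p-values below measure only the spread between these libraries, which may be technical.

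T cells recognize antigen through a receptor whose chains signal through the CD3 proteins. The kinase Lck, held at the membrane by the co-receptors CD4 and CD8, phosphorylates the CD3 chains, the kinase ZAP-70 binds there, and the signal passes on to adaptors such as LAT. Naive T cells that have not met their antigen circulate through lymph nodes, which they enter with the help of CCR7, and they depend on the cytokine IL-7. LEF1 and TCF-1 are transcription factors of naive T cells. Adipose tissue holds resident T cells and, in the subcutaneous depots of the mouse, lymph nodes within the fat. The villi of the small intestine hold intraepithelial lymphocytes, many of which carry CD8 and granzymes.

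In the GRCm38 genome with the GENCODE M21 annotation, the 3 CD3 genes lie next to each other on chromosome 9. Cd3g (ENSMUSG00000002033) covers chr9:44969572-44980431 on the minus strand, Cd3d (ENSMUSG00000032094) covers chr9:44981786-44987339 on the plus strand, and Cd3e (ENSMUSG00000032093) covers chr9:44998740-45009627 on the minus strand. Cd3g and Cd3d are transcribed away from each other from starts 1355 bases apart, and the RefSeq start of Cd3e lies 27825 bases from that of Cd3d. The other 6 genes are on other chromosomes, Cd4 (ENSMUSG00000023274) at chr6:124864692-124888221, Lck (ENSMUSG00000000409) at chr4:129548344-129573641, Zap70 (ENSMUSG00000026117) at chr1:36761798-36782818, Ccr7 (ENSMUSG00000037944) at chr11:99144196-99155077, Il7r (ENSMUSG00000003882) at chr15:9505788-9530176 and Lef1 (ENSMUSG00000027985) at chr3:131110471-131224356.

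The 250 bases before the start of the CD3 genes are shown because these 3 neighbours moved together in every tissue that listed more than 1 of them. The sequences are from RefSeq (GRCm38.p6), 5′ to 3′ on the strand of the gene, at chr9:44980432-44980681 (minus) for Cd3g, chr9:44981536-44981785 (plus) for Cd3d and chr9:45009612-45009861 (minus) for Cd3e. Capitals mark a core of an ETS site (AGGAAG), a RUNX site (TGTGGT) or a TCF and LEF site (CTTTGA), read on both strands, and no marked motif overlapped another.
Cd3g: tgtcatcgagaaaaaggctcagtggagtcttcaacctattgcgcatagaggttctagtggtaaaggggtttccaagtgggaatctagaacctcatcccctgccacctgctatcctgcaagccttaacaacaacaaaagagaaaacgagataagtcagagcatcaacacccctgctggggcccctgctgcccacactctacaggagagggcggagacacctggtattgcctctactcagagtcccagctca
Cd3d: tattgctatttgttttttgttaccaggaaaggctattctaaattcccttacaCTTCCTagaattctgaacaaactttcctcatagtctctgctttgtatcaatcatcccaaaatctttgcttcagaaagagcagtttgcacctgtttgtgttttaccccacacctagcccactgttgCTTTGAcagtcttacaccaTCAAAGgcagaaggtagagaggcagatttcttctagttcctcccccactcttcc
Cd3e: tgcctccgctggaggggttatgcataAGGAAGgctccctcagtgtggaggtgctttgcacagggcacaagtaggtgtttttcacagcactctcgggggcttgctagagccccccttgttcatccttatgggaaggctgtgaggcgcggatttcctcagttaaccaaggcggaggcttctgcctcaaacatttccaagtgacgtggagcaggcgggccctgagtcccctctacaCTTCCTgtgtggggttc
Cd3d held 1 ETS core and 2 TCF and LEF cores, Cd3e held 2 ETS cores, and none of these letters occurred in the window of Cd3g. Among all 32851 windows of this length, 29.5% held the ETS core, 14% the RUNX core and 13.8% the TCF and LEF core on either strand. Of the other members, the window of Il7r held 1 ETS core, both windows of Lck held the ETS core and 1 of them the RUNX core, and of the 3 windows of Zap70 and the 4 windows of Lef1, 2 and 1 held the ETS core. A TCF and LEF core occurred in 1 window of Zap70 and 1 of Lef1, and a RUNX core in 1 window of Zap70. Cd4 and Ccr7 had no entry in the promoter table. A match of letters is a description of the window and not a site.

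In WAT all 9 genes were higher in the RYGB libraries than in the sham libraries, and no library of one group reached into the other. Values are in CPM, in which each gene's reads are scaled to the total of the library. Between genes they are not adjusted for length, so they are compared only between libraries. The log2 differences below are on log2(CPM + 1), which understates the change of genes near 1 CPM, and are RYGB minus sham with the standard error from limma (n = 4 and 4). As these values chose the set, no test is given.

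Cd3e, a signalling chain of the receptor complex, had 41.9, 44.4, 61.7 and 176.1 CPM in the 4 RYGB libraries and 1, 1.9, 1 and 2.7 CPM in the 4 sham libraries, in replicate order. The lowest RYGB library was thus far above the highest sham library, and replicate 4 of RYGB stood above the other three. Cd3e differed by 4.74 ± 0.44 on the log2 scale, or 49.1-fold between the group means (29.9-fold without RYGB replicate 4). Cd3d, the delta chain, had 26.6, 30.2, 36.6 and 96.4 CPM after RYGB against 1, 0.7, 1.1 and 1.3 CPM after sham, a log2 difference of 4.39 ± 0.36. Cd3g, the gamma chain, had 35.7, 34.6, 54.7 and 125.8 CPM against 0.9, 1.4, 1.3 and 2.5 CPM, a log2 difference of 4.48 ± 0.39. The 3 chains had the same order of libraries at the top, with replicate 3 second and replicate 4 highest after RYGB.

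Cd4, the co-receptor of helper T cells that macrophages can also carry, had 63.2, 53.1, 96 and 225.7 CPM in the RYGB libraries and 2.5, 3.6, 2.7 and 3.7 CPM in the sham libraries, a log2 difference of 4.51 ± 0.40. Lck, the kinase bound to the co-receptors, had 76.6, 94.8, 116.1 and 291.6 CPM against 3.7, 4.1, 3.8 and 6.6 CPM, a log2 difference of 4.54 ± 0.38. Zap70, which binds the phosphorylated CD3 chains, had 21.7, 22.1, 26.2 and 79.5 CPM against 1.5, 1.3, 1.2 and 2.1 CPM, a log2 difference of 3.71 ± 0.38. Co-receptor and kinases therefore had the same separated groups as the CD3 chains, and replicate 4 of RYGB was again the highest library.

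Among the genes of naive cells, Ccr7, the chemokine receptor for entry into lymph nodes, had 55.5, 53.2, 76.4 and 206.9 CPM after RYGB and 1.1, 1.1, 1.4 and 2 CPM after sham. Its log2 difference was 5.14 ± 0.39, and its ratio of means was 70-fold (44.1-fold without RYGB replicate 4). Lef1 had 28.7, 36.6, 46.5 and 150.8 CPM against 0.5, 1, 3.7 and 1 CPM, a log2 difference of 4.53 ± 0.53, and sham replicate 3 lay above the other sham libraries. Il7r, the IL-7 receptor alpha chain, had 76.8, 75.8, 87.1 and 273.2 CPM against 16.3, 25.3, 26.1 and 47.4 CPM. Il7r was thus the only member with more than 10 CPM in a sham library of WAT, and it had the smallest log2 difference (1.98 ± 0.45, 4.46-fold between means and 2.78-fold without RYGB replicate 4). In the plot of the WAT libraries the gap between the groups is narrowest for this gene.

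**Figure D1:**
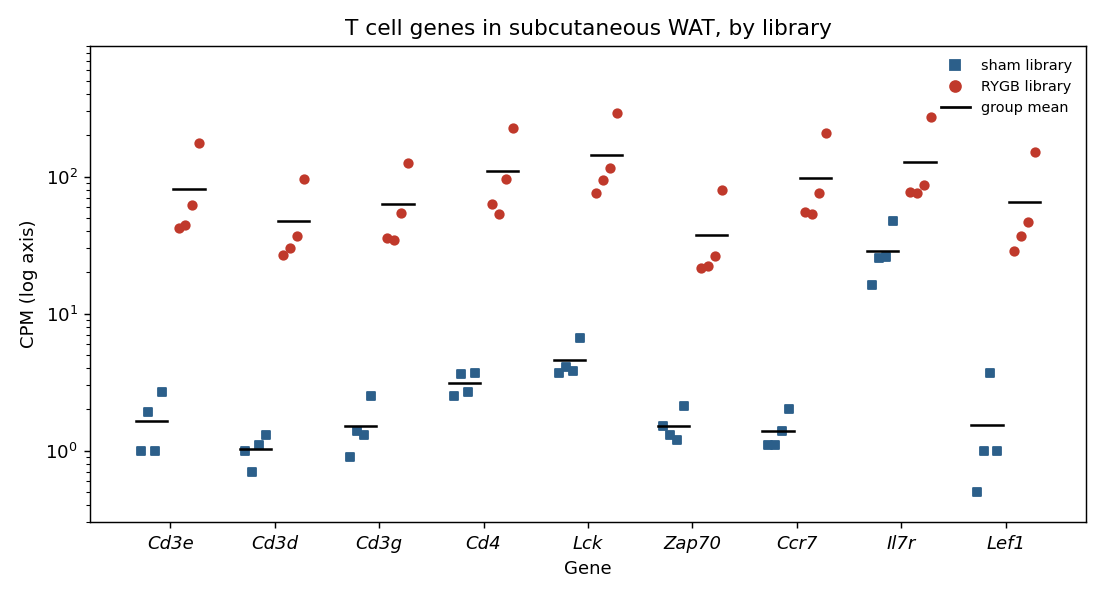
CPM of the 9 genes in the 4 sham (squares) and 4 RYGB (circles) libraries of subcutaneous WAT on a log axis, in replicate order from left to right, with group means as bars. RYGB and sham libraries do not overlap for any gene, and Il7r has sham values between 16.3 and 47.4 CPM whereas the other genes stay at or under 6.6 CPM in sham.

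For 9 of the 9 genes no sham library reached the lowest RYGB library, where 26.1% of the 13379 genes tested in WAT did so. The set was chosen on this contrast, so nothing is read from that count. The median log2 difference of the 9 genes was 4.51, and that of all genes tested was 0.11. Of the 9 genes, 3 (Cd3d, Cd3g and Lef1) owed their place in the table to the RYGB libraries alone, since listing required 1 CPM in a number of libraries no lower than the size of the smaller group. The sequencing lane was shared by 2 RYGB and 2 sham libraries (lane 5) and by 1 and 1 (lane 6). Within lane 5 the log2 differences of the 9 genes lay between 1.95 and 4.95, and within lane 6 between 2.50 and 6.25. In these bulk samples a higher share of T cells and more RNA of these genes per cell cannot be told apart.

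Relative to Cd3e in the same library, most members kept close to one level within the RYGB libraries. The ratio of Ccr7 to Cd3e lay between 1.17 and 1.32 in the 4 RYGB libraries, that of Cd4 between 1.20 and 1.56, that of Lck between 1.66 and 2.14, that of Lef1 between 0.685 and 0.856 and that of Zap70 between 0.425 and 0.518. These spreads were narrow although Cd3e itself ran from 41.9 to 176.1 CPM over the same libraries. In the sham libraries the ratios were wider, as values near 1 CPM that are rounded to 0.1 give imprecise ratios, with 0.579 to 1.4 for Ccr7 and 0.37 to 3.7 for Lef1. The ratio of Il7r to Cd3e was 1.41 to 1.83 after RYGB and 13.3 to 26.1 after sham, so Il7r was higher relative to Cd3e in every sham library than in any RYGB library. Zap70 was also higher relative to Cd3e in every sham library (0.684 to 1.5) than in any RYGB library. Lck over Cd3e was 2.16 to 3.8 after sham. Its lowest sham ratio and its highest RYGB ratio (2.14) cannot be told apart at values rounded to 0.1 CPM. These ratios share their denominator and were not tested.

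**Figure D2:**
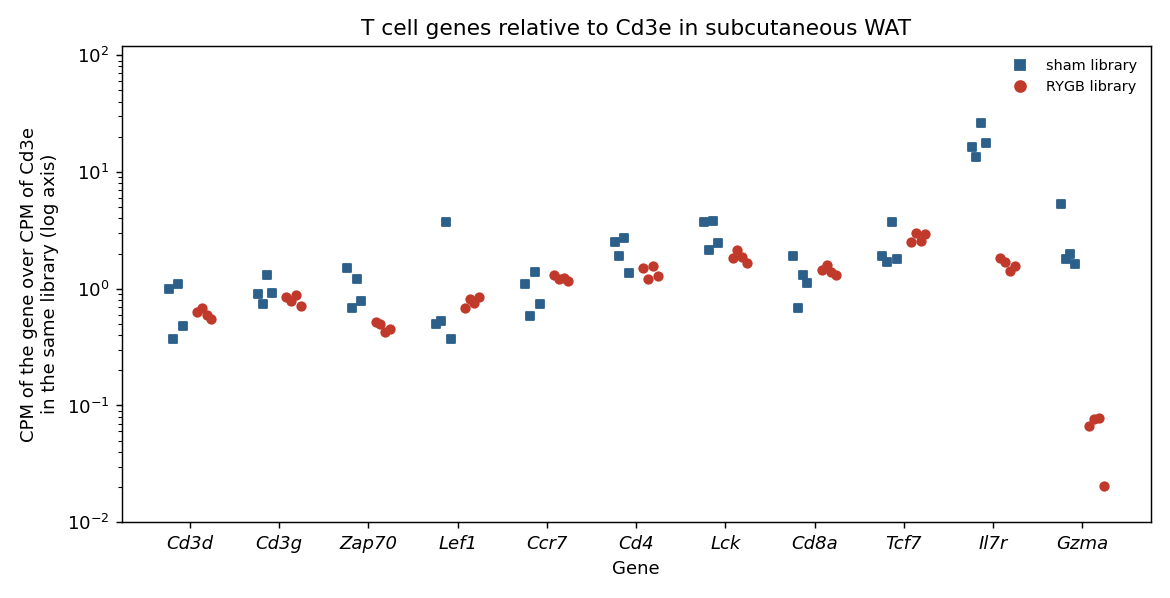
CPM of 11 genes divided by the CPM of Cd3e in the same WAT library on a log axis, with sham libraries as squares and RYGB libraries as circles. The RYGB ratios of Ccr7 (1.17 to 1.32) and Cd4 (1.20 to 1.56) are tight, whereas Il7r over Cd3e is 13.3 to 26.1 in sham and 1.41 to 1.83 in RYGB and Gzma over Cd3e is 1.63 to 5.3 in sham and 0.0204 to 0.0778 in RYGB.

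Other T cell genes of WAT were read from 2 lists, 30 genes of the receptor complex and its signalling and 24 genes of naive T cells and of their survival. Under a rule of a limma adjusted p under 0.05 and a fold of at least 1.5, 46 of the 54 genes were higher after RYGB and 0 were lower, beside 14.9% higher among all genes tested. This is the same contrast that chose the set, so the count adds no independent support. Of the receptor list, 29 of 30 passed, and the largest log2 differences were those of Cd8a (5.12 ± 0.39), the co-receptor of cytotoxic T cells, Grap2 (4.81 ± 0.39), an adaptor that binds the LAT complex, Cd8b1 (4.79 ± 0.39) and Cd6 (4.64 ± 0.41), a surface co-receptor of T cells. The smallest were those of Lcp2 (1.29 ± 0.33), the adaptor SLP-76, Nfatc1 (1.06 ± 0.23) and Nfatc2 (0.95 ± 0.25), transcription factors downstream of the receptor, and Fyn (0.56 ± 0.24), a kinase of many tissues, which did not pass. All 4 of these were at 20 CPM or more in every sham library. Cd8b1, with 0.7 to 1.7 CPM in the sham libraries, was listed through the RYGB libraries alone, so its difference had to be there.

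Of the naive list 17 of 24 passed, among them Tcf7 (5.44 ± 0.46), which encodes TCF-1, Bcl11b (4.30 ± 0.39), a T lineage transcription factor, and Gimap3 (4.03 ± 0.39), a GTPase of lymphocytes. The smallest differences were those of Igfbp4 (-0.04 ± 0.16), which binds insulin-like growth factors, S1pr1 (0.09 ± 0.26), the receptor for exit from lymph nodes that endothelium also carries, Actn1 (0.20 ± 0.26), a cytoskeletal actinin, and Il6ra (0.20 ± 0.26), the IL-6 receptor. These 4 had sham values of 45 CPM or more in every library, and none passed the rule.

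The 8 genes whose profile over the 8 WAT libraries was most like the mean profile of the set, by the mean absolute difference of centred log2(CPM + 1) values, were Lat (0.0725), Cd5 (0.0971), Bcl11b (0.130), Rltpr (0.137), Slamf6 (0.155), St8sia1 (0.160), Ccl22 (0.161) and Cd27 (0.164). Lat had 36.7 to 145.3 CPM after RYGB and 1.8 to 3.5 CPM after sham. Ccl22, a chemokine made by dendritic cells, had 47 to 209.9 CPM against 2 to 4.4 CPM. The members themselves lay between 0.136 (Cd3d) and 1.12 (Il7r) from their own mean profile. Il7r was thus less like the set than each of these 8 genes. The same held for Ccr7 (0.458), Lef1 (0.387), Zap70 (0.258), Cd3e (0.256) and Cd4 (0.190).

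Genes of other cells moved with the set in WAT. B cell genes were higher after RYGB by the rule for 14 of 14 genes, beside 14.9% of all genes. Their median log2 difference was 5.96, and their summed level was 1467.5 to 3907.7 CPM against 34.5 to 57.6 CPM. Cd79a, a chain of the B cell receptor, had 106.4 to 263.7 CPM against 0.6 to 1.9 CPM. Glycam1, a mucin made by the high endothelial venules of lymph nodes, had 42, 58.3, 58.1 and 136 CPM in the RYGB libraries and 0 to 0.2 CPM in the sham libraries. Cd79a and Glycam1 were listed through the RYGB libraries alone, so a difference in this direction had to be there. Ccl21a was not listed. Of the 10 listed of 13 genes for lymph node vessels and stroma, 7 were higher and 1 lower, beside 14.9% and 9.23% of all genes. Their summed levels were 373.2 to 696.1 CPM after RYGB and 298 to 478.5 CPM after sham. This is the contrast that chose the set, so the counts of both lists are no independent support. The part of lymph node tissue in the T cell values was not tested.

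Foxp3, the transcription factor of regulatory T cells, had 9.7 to 54.2 CPM after RYGB and 0.3 to 0.4 CPM after sham. It was listed through the RYGB libraries alone, so a difference in this direction had to be there. Of the 15 listed of 20 helper and regulatory genes, 11 passed the rule, all higher, beside 14.9% of all genes. The cytotoxic genes were also higher in 14 of 19 listed of 23, with a smaller median log2 difference of 1.64. Which other genes of these lists were listed through RYGB alone was not worked out. The contrast is the one that chose the set, so neither count is independent support. Gzma, the cytotoxic granzyme A, had 2.8 to 4.8 CPM in the RYGB libraries and 2 to 5.3 CPM in the sham libraries, so the groups overlapped.

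Adipocyte genes were listed for 10 of 10, with a median log2 difference of -0.51. Adipoq, the adipokine adiponectin, had 1592.1, 1466.4, 1464.5 and 863.8 CPM after RYGB and 1692.4 to 2153.1 CPM after sham, and RYGB replicate 4, which had the highest T cell values, had the lowest Adipoq. Adgre1, which encodes the macrophage antigen F4/80, had 42.6 to 138.9 CPM against 151.6 to 348.7 CPM. Of 15 macrophage genes, 2 were higher and 5 lower, beside 14.9% and 9.23% of all genes. Their log2 differences ran from -1.19 to 5.53 with a median of -0.53, so Adgre1 does not stand for the whole list. The sham libraries differed in keratinocyte genes, of which 6 of 10 were listed, with a summed level of 10.5 to 201.9 CPM in sham and 15.2 to 23.9 CPM in RYGB. Krt5, a keratin of basal skin cells, had 51.9, 30, 72.1 and 1 CPM in the sham libraries and at most 0.1 CPM in the RYGB libraries, so sham replicate 4 was the one without clear skin genes. Against sham replicate 4 alone, an alternative chosen after seeing the data, 9 of 9 genes had every RYGB library higher, and the log2 difference of Il7r became 1.18.

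In the villi of the duodenum, the segment that food no longer passes after RYGB, the listed members Cd3d, Cd3e, Cd3g, Lck and Zap70 had higher means after RYGB, 2.52-fold (Cd3e) to 3.16-fold (Zap70). As the intestinal values helped to choose the set, the members are described in the 3 segments without a test. Cd4, Ccr7, Il7r and Lef1 were not listed in any intestinal segment.

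Cd3e had 18.3, 7.1 and 10.5 CPM in the 3 RYGB libraries of the duodenum and 3.7, 3.6, 2.6 and 9.1 CPM in the 4 sham libraries. Its log2 difference was 1.20 ± 0.40. Cd3g had 16.8, 7.4 and 10.2 CPM against 4.5, 2.7, 2 and 6.8 CPM, a log2 difference of 1.35 ± 0.37, and was the one member whose groups did not overlap, beside 12.7% of all genes with every RYGB library higher. Lck had 12.2, 4.9 and 8.5 CPM against 2.6, 1.9, 1.7 and 6.8 CPM, a log2 difference of 1.23 ± 0.41. In each of these genes sham replicate 4 was the highest sham library and lay within or close to the RYGB values.

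Zap70 had 5.8, 2.8 and 4.2 CPM after RYGB and 1, 0.8, 0.5 and 3.1 CPM after sham (log2 difference 1.24 ± 0.36), and Cd3d had 4.1, 1.9 and 3.3 CPM against 0.9, 0.9, 0.6 and 2.1 CPM (0.96 ± 0.28). These 2 genes were listed through the RYGB libraries alone. Without sham replicate 4 the log2 differences of the 5 members were 1.15 to 1.59. All libraries of the duodenum were run on the same lane.

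In the jejunum, into which the pouch is emptied, the same 5 genes were lower after RYGB, and all 3 RYGB libraries lay below all 4 sham libraries for each. Among all 10854 genes tested, 12.5% had every RYGB library below every sham library, and nothing is read from the members' count. Cd3d and Zap70 were listed through the sham libraries alone, and for them a difference in this direction had to be there.

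Cd3e had 1.6, 1.9 and 2.9 CPM in the RYGB libraries of the jejunum and 6.8, 8, 7.7 and 10.9 CPM in the sham libraries, with a log2 difference of -1.58 ± 0.23 and a sham mean 3.91-fold above the RYGB mean. Cd3g had 1.4, 1.9 and 2.6 CPM against 7.3, 7.3, 7.4 and 13.9 CPM, a log2 difference of -1.72 ± 0.27. Cd3d had 0.3, 0.5 and 1.2 CPM against 2, 2.1, 2.4 and 3.8 CPM (-1.11 ± 0.26). The 3 CD3 chains thus had the same order of RYGB libraries, with replicate 1 lowest and replicate 3 highest.

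The kinases followed that order. Lck had 1.2, 2 and 2.5 CPM after RYGB and 4.3, 4.7, 5.9 and 8.2 CPM after sham (log2 difference -1.22 ± 0.26). Zap70 had 0.5, 0.8 and 1.5 CPM against 2.1, 1.9, 2.8 and 4.2 CPM (-0.95 ± 0.27). One RYGB library (replicate 2) was on another lane than the rest, and within lane 1 the 5 log2 differences lay between -1.71 and -0.91.

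In the ileum the listed members Cd3e, Cd3g, Lck and Zap70 had lower means after RYGB. All 4 owed their place in the table to the sham libraries alone. Cd3e had 1.9, 0.8, 2, 3.4 and 1.3 CPM in the 5 RYGB libraries and 5.7, 4.5, 9.9, 7.7 and 10.9 CPM in the 5 sham libraries, a log2 difference of -1.61 ± 0.27. Cd3g had 2.5, 0.9, 2.2, 3.1 and 1 CPM against 5.5, 3.6, 8.2, 8.1 and 10.6 CPM (-1.48 ± 0.29). Replicate 2 was the lowest library of its group in both RYGB and sham for these 2 genes, and the groups did not overlap, beside 6.92% of all genes with every RYGB library lower.

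Lck had 1.9, 0.5, 2.2, 2.7 and 1 CPM after RYGB and 3.8, 3.7, 8.4, 6.7 and 9.9 CPM after sham in the ileum (log2 difference -1.49 ± 0.30). Zap70 had 0.9, 0.3, 0.9, 1.1 and 0.6 CPM against 2.2, 1.1, 4.2, 2.5 and 5.6 CPM (-1.14 ± 0.28), and its highest RYGB library equalled its lowest sham library. All RYGB libraries of the ileum were on lane 1 and all sham libraries on other lanes, and these 2 factors cannot be told apart there.

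**Figure D3:**
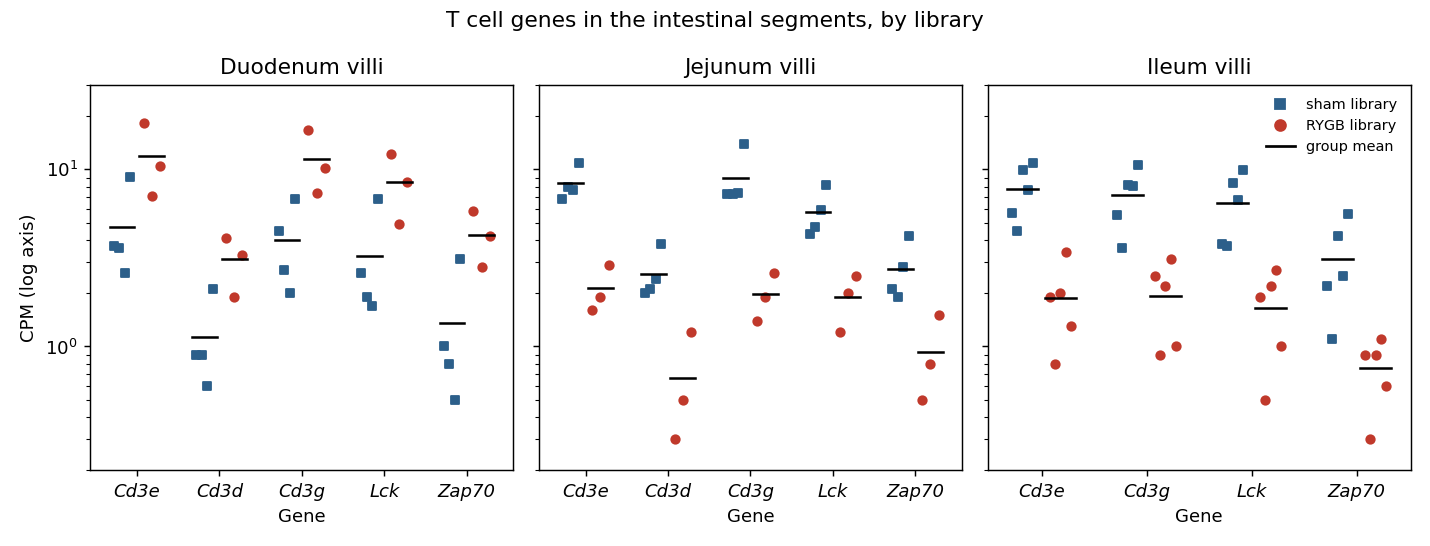
CPM of the listed members in the sham (squares) and RYGB (circles) libraries of the villi of the 3 intestinal segments on a log axis, with group means as bars. RYGB values lie mostly above sham in the duodenum, except for sham replicate 4, and below sham in the jejunum and ileum, where the means of Cd3e are 2.13 against 8.35 CPM and 1.88 against 7.74 CPM.

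Relative to Cd3e, Cd3g, Lck and Cd8a had ranges that overlapped between the groups in the segments given here. The ratio of Cd3g to Cd3e was 0.875 to 1 after RYGB and 0.912 to 1.28 after sham in the jejunum, and 0.769 to 1.32 and 0.8 to 1.05 in the ileum. Lck over Cd3e was 0.75 to 1.05 and 0.588 to 0.766 in the jejunum, and 0.667 to 0.81 and 0.528 to 0.747 in the duodenum. Cd8a, which was listed in all 3 segments while Cd4 was not, had a ratio to Cd3e of 1.31 to 1.97 after RYGB and 1.66 to 2.41 after sham in the jejunum. Other ratios were separated in some segments and overlapped in others. Tcf7 over Cd3e was 0.421 to 0.793 after RYGB and 0.174 to 0.362 after sham in the jejunum, and 0.735 to 2.37 and 0.195 to 0.444 in the ileum. In the duodenum Tcf7 over Cd3e overlapped, at 0.219 to 0.31 after RYGB and 0.187 to 1.38 after sham. Itgae, an integrin of intraepithelial lymphocytes, had a ratio to Cd3e of 1.65 to 1.77 after RYGB and 1.31 to 1.59 after sham in the duodenum. That ratio overlapped in the jejunum (1.44 to 2.24 and 1.32 to 1.69) and in the ileum (1.46 to 2.42 and 1.56 to 2.28).

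Cytotoxic and intraepithelial lymphocyte genes were lower beside the members in the jejunum and ileum. In the jejunum 13 of 14 listed genes passed the rule, in the ileum 13 of 13, and in the duodenum 0 of 14 passed while all 14 had a positive log2 difference and 13 had an unadjusted limma p under 0.05, as 18.8% of all genes of the duodenum did. Of the 13 genes of the ileum, at least Cd244, Nkg7 and Ctsw were listed through the sham libraries alone. Their lowest RYGB libraries had 0.3, 0.6 and 0.7 CPM, so their calls support no difference. For the other genes of this list the group that gave the listing was not worked out, and more may owe it to sham alone. Nothing is therefore read from the counts of 13 in the jejunum and ileum. Among all genes the rule called 5.13% lower in the jejunum, 4.42% lower in the ileum and 0.00922% in the duodenum. These are the contrasts that helped to choose the set, so neither these calls nor those of the other T cell genes of the 3 segments are independent support. The summed level of the listed cytotoxic genes in the jejunum was 32.1 to 60 CPM after RYGB and 128.9 to 348.7 CPM after sham. It was 14.4 to 63.6 and 84 to 273 CPM in the ileum, and 145 to 387.5 and 57.1 to 196.1 CPM in the duodenum. Gzma had 14.1, 20.9 and 16.4 CPM after RYGB and 77.1, 51.7, 67.5 and 169.2 CPM after sham in the jejunum. The ratio of Gzma to Cd3e lay between 2.62 and 16 in the villi over both groups and all 3 segments. That range lay above every RYGB library of WAT (0.0204 to 0.0778) but overlapped that of the sham libraries of WAT (1.63 to 5.3). The tables were normalized separately, and levels were not compared across them by a test.

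Of the other T cell genes, 12 of 32 tested in the ileum were lower and 0 higher by the rule, beside 4.42% and 1.64% of all 10735 genes and 6.05% in either direction (median log2 difference -0.73, all genes -0.09). They were Cd8a, Ptprc, which encodes the leukocyte antigen CD45, Lcp2, Fyn, Nfatc2, Rasgrp1, an activator of Ras, and Txk, a kinase of the Tec family, from the receptor list, and Il2rg, Bcl2, Ikzf1, Gimap4 and Gimap6 from the naive list. Cd8a had 1.7 to 7.2 CPM after RYGB and 10.9 to 27.8 CPM after sham, with a log2 difference of -1.99 ± 0.34 (limma adjusted p = 0.00962). Gimap4, a GTPase of lymphocytes, had a log2 difference of -1.52 ± 0.36 (limma adjusted p = 0.0284). Bcl2, which protects lymphocytes from cell death, had a log2 difference of -1.30 ± 0.26 (limma adjusted p = 0.0145). Its values were 0.4 to 1.8 CPM after RYGB and 2 to 5.7 CPM after sham. Bcl2 was thus listed through the sham libraries alone, so its p-value supports no difference. Leaving out 1 library gave between 3 and 14 other T cell genes past the rule. The count was 3 when RYGB replicate 2, sham replicate 3 or sham replicate 5 was left out. It was 5 for sham replicate 4 and 7 for RYGB replicate 1.

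In the jejunum 7 of 29 tested were lower and 2 higher, beside 5.13% and 4.62% of all genes (median -0.60, all genes -0.04). The lower ones were Cd8a, Ptprc, Rasgrp1, Txk, Gimap3, Gimap4 and Gimap6. Cd8a had 2.1 to 5.7 CPM after RYGB and 13.3 to 21.2 CPM after sham, a log2 difference of -1.88 ± 0.29 (limma adjusted p = 0.00411). The higher ones were Runx1, a transcription factor that epithelium also carries, with 13.4 to 22.9 CPM against 1.8 to 4.5 CPM (2.19 ± 0.29, limma adjusted p = 0.00225), and Actn1 (1.23 ± 0.33, limma adjusted p = 0.0444). The count was 3 when RYGB replicate 2 was left out, 4 for sham replicate 1, 3 or 4, and 5 for RYGB replicate 1.

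In the duodenum 0 of 32 passed the rule in limma, which called 0.00922% of all 10850 genes, 20 had an unadjusted p under 0.05 beside 18.8% of all genes, and the median was 0.85 (all genes 0.12). Trac, the constant part of the receptor alpha chain, ran against the members there, with 2.7, 1.8 and 1.6 CPM after RYGB and 13.5, 4, 2.9 and 2 CPM after sham (log2 difference -0.85 ± 0.49, limma adjusted p = 0.377), and sham replicate 1 was far above the rest. Without sham replicate 4, 15 of the 32 passed. The share of all genes that passed without that library is not given, so nothing is read from this count.

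The 8 genes of the ileum with the profile most like that of the 4 members were Cd244 (mean absolute difference 0.121), Bcl2 (0.124), Prkch (0.125), Sept1 (0.125), Acap1 (0.126), Coro1a (0.138), Nkg7 (0.141) and Ctsw (0.142), over 10 libraries. Cd244, a receptor of cytotoxic cells, had 0.3 to 2.2 CPM after RYGB and 2.9 to 8.2 CPM after sham. Coro1a, an actin-binding protein of leukocytes, had 1.2 to 3.7 CPM and 4.2 to 12.7 CPM. Of these 8 the ones on a list were Bcl2 of the naive list and Cd244, Nkg7 and Ctsw of the cytotoxic list, whereas in WAT the ones were Lat, Cd5 and Bcl11b of the receptor and naive lists. The profile of the ileum came from 4 members and that of WAT from 9. Of the receptor list 14 of 30 genes were listed in the ileum and 30 of 30 in WAT. Nothing is therefore read from this contrast.

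Enterocyte genes, which check the tissue, were listed for 10 of 10 in each segment. Their summed level was 37082.3 to 48297.4 CPM after RYGB and 47297.6 to 62809.5 CPM after sham in the duodenum, 33513.3 to 61357.1 and 58122.3 to 88256.4 CPM in the jejunum, and 53621.2 to 71431.7 and 35027 to 61373.2 CPM in the ileum. Of the B cell list 1 of 14 genes was listed in each segment, at a summed level of at most 18.2 CPM. The part of a changed share of epithelium in the T cell values was not tested.

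In the liver 3 members were listed, Cd4, Lck and Zap70, while none of the CD3 genes, which define T cells, was. None of the 3 passed the rule in limma, which called 7.08% of the 11807 genes tested, and 2 had an unadjusted p under 0.05 beside 26.9% of all genes. Cd4 had 1.1, 1.1, 0.8 and 1.3 CPM after RYGB and 3.9, 3.5, 1.7 and 1.7 CPM after sham, a log2 difference of -0.78 ± 0.22 (limma adjusted p = 0.0526), without overlap of the groups, beside 3.05% of all genes with every RYGB library lower. Zap70 had 11.5, 6.5, 6 and 8.6 CPM against 14.8, 10.7, 13.5 and 9.2 CPM (-0.53 ± 0.20, limma adjusted p = 0.125), and Lck 0.8 to 1.1 CPM against 0.8 to 1.2 CPM (-0.03 ± 0.15, limma adjusted p = 0.905). Cd4 was listed through the sham libraries alone, so its p-value supports no difference. It passed the rule without sham replicate 3, with a log2 difference of -0.92, and Zap70 did without RYGB replicate 1, with -0.69. Within lanes 2, 3 and 4, which held 1 or 2 libraries of each group, Cd4 differed by -1.10, -0.36 and -1.27 on the log2 scale and Zap70 by 0.10, -0.70 and -0.95.

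The other T cell genes of the liver ran the other way, with 7 of 30 higher and 0 lower by the rule, beside 5.79% and 1.29% of all genes (median 0.55, all genes 0.13). They were Ptprc (1.33 ± 0.28, limma adjusted p = 0.0196), Tcf7 (0.87 ± 0.22), Ets1 (0.64 ± 0.15), Il6ra (0.96 ± 0.21), Il2rg (1.05 ± 0.28), Actn1 (0.61 ± 0.17) and Runx1 (1.12 ± 0.29), none of which is restricted to T cells. Macrophage genes moved with them, as 4 of 15 were higher by the rule, with a summed level of 1018.3 to 3142.6 CPM after RYGB and 447.3 to 774.8 CPM after sham, and their part in the result was not tested. The count was 2 with libraries scaled by median ratios, and leaving out 1 library gave 0 (RYGB replicate 3), 14 (RYGB replicate 1), 1 (sham replicate 1), 3 (sham replicate 2), 3 (sham replicate 3) or 2 (sham replicate 4).

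In the gastrocnemius muscle no member was listed. Of the other T cell genes 26 were tested, with a median log2 difference of 0.15 (all genes 0.05). The rule in limma called 0 of these 26 and 0 of all 11966 genes (0%), and 2 of the 26 had an unadjusted p under 0.05 beside 14.6% of all genes. No gene of the cytotoxic list or of the B cell list was listed there, and all 10 skeletal muscle genes were.

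Across the tissues, Cd3e had group means of 81 ± 64 CPM (SD, n = 4) in WAT after RYGB, 12 ± 5.74 (n = 3) in the duodenum after RYGB, 8.35 ± 1.77 (n = 4) in the jejunum after sham, 7.74 ± 2.71 (n = 5) in the ileum after sham, 4.75 ± 2.94 (n = 4) in the duodenum after sham, 2.13 ± 0.681 (n = 3) in the jejunum after RYGB, 1.88 ± 0.978 (n = 5) in the ileum after RYGB and 1.65 ± 0.819 (n = 4) in WAT after sham. The tables were normalized separately, so this order is a description, and each pair of neighbours in it had overlapping libraries except the first, WAT after RYGB and the duodenum after RYGB. Among the tissues that listed Cd3e, WAT thus held both the highest and the lowest group mean. The liver and muscle, where Cd3e was not listed, are outside this order. Lck, listed in 5 tissues, had means from 145 ± 99.2 CPM in WAT after RYGB to 1 ± 0.141 CPM in the liver after RYGB (n = 4 each). Zap70 in the liver after sham, at 12.1 ± 2.56 CPM (n = 4), lay above every intestinal group mean of that gene, where Cd3e was not listed in the liver.

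**Figure D4:**
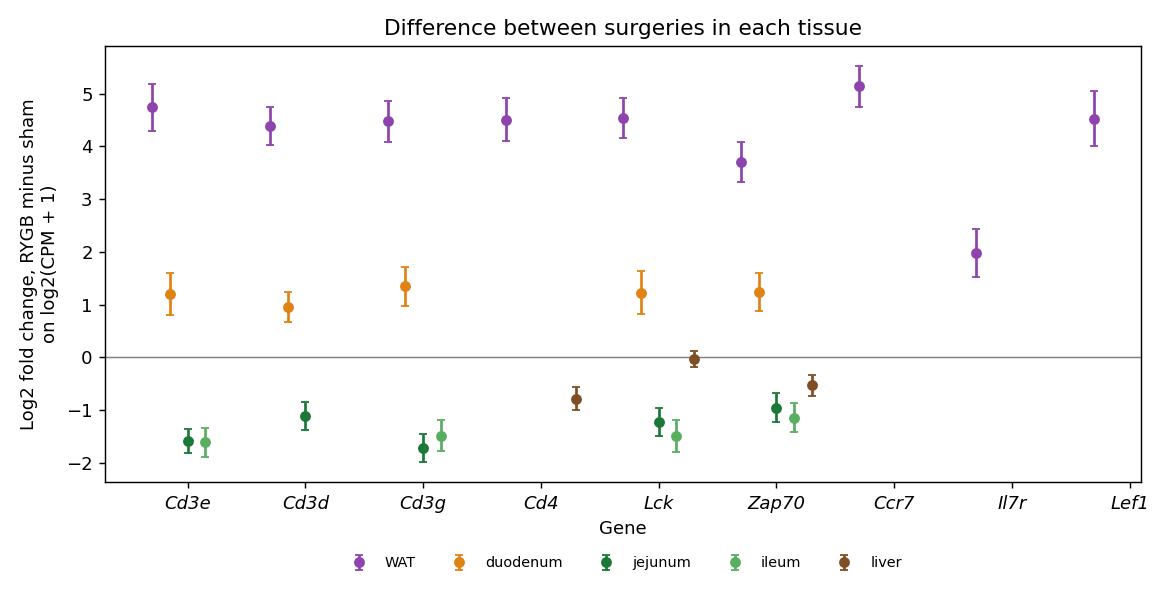
Log2 fold change of each member between RYGB and sham on log2(CPM + 1) in each tissue that listed it, with the standard error from limma as bars. Values lie between 1.98 and 5.14 in WAT, between 0.96 and 1.35 in the duodenum, and at or below -0.95 in the jejunum and ileum.

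**Figure D5:**
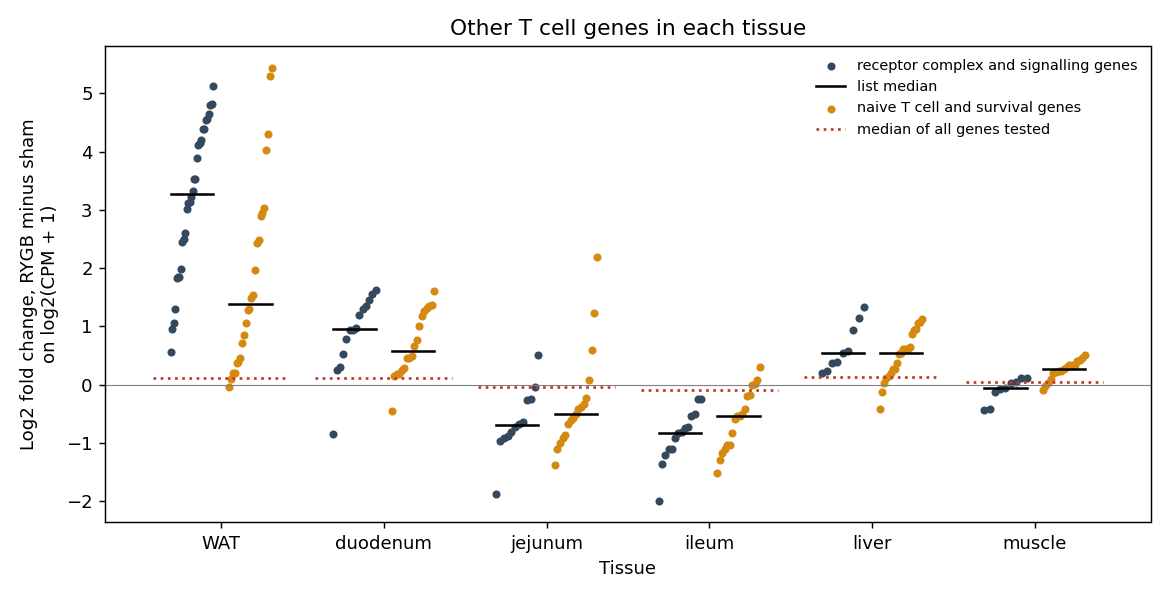
Log2 fold changes between RYGB and sham of the other T cell genes of 2 lists in 6 tissues, each point a gene sorted within its list, with list medians as black bars and the median of all genes tested as a dotted line. Medians of the receptor list are 3.27 in WAT, 0.96 in the duodenum, -0.70 in the jejunum, -0.82 in the ileum, 0.55 in the liver and -0.05 in muscle.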

How the data were processed

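Values were deposited by the authors as 1 table for each tissue, in CPM (reads of a gene scaled to the library total) rounded to 0.1. For the jejunum and ileum they are recorded as signal in the file check, because deposited lines that repeat a gene lift the column total above that of CPM, and the deposited column of sham replicate 4 of the liver is recorded as other, because 12 incomplete lines held another kind of number and were left out. Repeated lines held equal values and were counted once. Column totals were then 925122 to 998777. The submitters' processing notes name HTSeq and GRCm38, and the aligner is not given in the sources used here. The kit was a stranded mRNA kit. Sequencing depth is unknown, so no counting interval was computed. No column of samples was left unused.

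RYGB and sham were compared within each tissue with limma 3.58.1 (R 4.3.3, empirical Bayes with trend) on log2(CPM + 1), for genes whose mean reached 1 CPM. Benjamini-Hochberg adjustment ran over all genes of the tissue, and a call needed an adjusted p under 0.05 and a fold of at least 1.5. Members were to be tested in the intestine too, but are described there without a test because those values helped to choose them. Fitting was tested on simulated data. Tables were prepared with Python 3.11.15 and pandas 2.3.3. Members, lists and naming rule were chosen with earlier results of these data known. Named were all members, other T cell genes called outside WAT, in WAT the 4 largest and 4 smallest changes of each list, 10 marker genes where listed, and 8 genes of most similar profile in WAT and ileum. One gene that this rule names is not reported here. Trac and Gzma and the genes whose ratios are given were added after their values were seen. Alternatives were a pseudocount of 0.1, other minimum levels, median ratio scaling, lane, a replicate block and leaving out each library. Replicate numbers did not pair the samples (correlations of deviations from -0.281 to 0.389).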

Additional observations from a re-analysis of the deposited data

Results flagged for a closer look

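Of 42 groups of 4 or 5 libraries of a member, in which chance alone would flag about 2.1, 4 had a library far from the others by Dixon's gap over range on log2(CPM + 1). They were the highest sham library of Cd3g in the jejunum (13.9 CPM, 0.98), the highest RYGB libraries of Il7r (273.2 CPM, 0.892) and Zap70 (79.5 CPM, 0.857) in WAT and the highest sham library of Lck in WAT (6.6 CPM, 0.83).

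For 6 members every RYGB library moved one way in one tissue and the opposite way in another, and these differences between tissues were not tested because each table has its own normalization. The log2 fold change in WAT exceeded that in the jejunum by 6.32 for Cd3e, 5.5 for Cd3d, 6.2 for Cd3g, 5.75 for Lck and 4.66 for Zap70, and that in the ileum by 6.34 for Cd3e, 5.96 for Cd3g and 6.02 for Lck. For Cd3g the duodenum exceeded the jejunum by 3.07 and the ileum by 2.82. For Cd4, WAT exceeded the liver by 5.3.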

How the results depend on the processing

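In WAT 9 of 9 members kept separate groups with median ratio scaling and without any 1 library. Counts of members past the rule in the intestine (0 of 5 in the duodenum, where 5 had an unadjusted limma p under 0.05, 4 of 5 in the jejunum and 4 of 4 in the ileum) are given here only to show how they move with the processing, since those values helped to choose the set, and they support nothing. Among all genes the rule called 0.00922% in the duodenum, 9.75% in the jejunum and 6.05% in the ileum. In the duodenum 18.8% of all genes had an unadjusted limma p under 0.05. The shares of all genes under the other settings, and without 1 library, are not given. Replicate numbers did not pair the samples; with the replicate block the members past the rule were 3 in the duodenum and 1 in the liver, the other T cell genes 10 and 12, and no other count moved by over 1.5 times. With lane as a covariate there were 2 members and 3 other T cell genes in the jejunum and 1 member in the liver. Median ratio scaling moved the median log2 difference of all genes from 0.11 to 0 in WAT, from 0.12 to 0 in the duodenum and from 0.13 to -0.01 in the liver, and it turned the direction of no member. A pseudocount of 0.1 gave 1 member in the liver, and median ratio scaling 2 other T cell genes there. A mean of at least 10 CPM, which tests fewer genes, gave 1 other T cell gene in the jejunum, 2 in the ileum and 4 in the liver, and left no member to test in the intestine.

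Leaving out 1 library gave 0 to 5 members in the duodenum, 2 to 5 in the jejunum and 0 to 1 in the liver. For other T cell genes it gave 0 to 15 in the duodenum, 3 to 11 in the jejunum, 3 to 14 in the ileum and 0 to 14 in the liver. The log2 difference of Lck in the liver lay between -0.1 and 0.02, reversed without RYGB replicate 1 (0.02) and without sham replicate 2 (0.00). For all of these, the cause was not tested. Lane could not be fitted in the duodenum and ileum. Values are rounded to 0.1 CPM and depth is unknown, which limits genes near 1 CPM, among them the members in the sham libraries of WAT.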
